A study of Mus musculus with 20 samples.

Results

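The genes described here encode cyclic nucleotide phosphodiesterases other than Pde1b and Pde10a, the phosphodiesterases best known from the striatum. They are Pde1a, Pde1c, Pde2a, Pde4a, Pde4b, Pde4d, Pde5a, Pde7b, Pde8b and Pde9a, and they were chosen by symbol, 10 genes of the 39179 listed in the count tables. Of the 10, 9 had a row under their current identifier and all 9 passed the filter on low counts, among 14792 genes tested. Striatal RNA of 20 male mice was sequenced, 5 per combination of line (Control or High-Active) and injection (saline or amphetamine). High-Active mice came from generation 17 of a line bred for high activity in the home cage, and Control mice came from a second line of that generation founded on the same intercross of inbred strains. There was 1 line of each kind, so selection and genetic drift cannot be told apart. The mice were about 6.5 months old and received d-amphetamine sulfate at 0.25 mg/kg or saline, injected intraperitoneally 2 hours before the tissue was taken. Saline mice carried the injection and its handling too. By the parents named in the labels there were 8 Control families and 5 High-Active families, and 9 High-Active and 4 Control mice had a full sibling among the 20, so mice of a line were not fully independent samples.

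Phosphodiesterases break down the second messengers cAMP and cGMP and so end signals that receptors start through adenylyl and guanylyl cyclases. In medium spiny neurons, the main neurons of the striatum, dopamine acts on cAMP in opposite directions through D1-type and D2-type receptors, and nitric oxide acts on cGMP. The families differ in what they cleave and in what controls them. The PDE1 enzymes are switched on by calcium and calmodulin and cleave both messengers. PDE2A also cleaves both and is stimulated by cGMP. The PDE4, PDE7 and PDE8 enzymes prefer cAMP, whereas PDE5A and PDE9A prefer cGMP. Amphetamine releases dopamine, and the comparison of lines and treatments asks whether genes of this kind differ with selection, with the drug, or in their response to the drug.

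The genes lie on 9 chromosomes of the genome build GRCm38. Pde1a is on chromosome 2 at 79834453 to 80129458, minus strand, and Pde5a on chromosome 3 at 122728947 to 122859374, plus strand. Pde7b is on chromosome 10 at 20398004 to 20725078, minus strand, and Pde8b on chromosome 13 at 95024454 to 95250336, minus strand. Pde4d, the longest, covers 1503.5 kb of chromosome 13. Promoter windows in RefSeq for GRCm38.p6, each of 300 bases with 250 before and 50 after an annotated start, were found for 9 of the 10 genes, 27 windows in all. Of the 9 genes tested, Pde1a had the largest difference with amphetamine and Pde5a the largest line by drug difference, so their windows are shown. Neither difference passed the threshold of the main test described below. Windows of Pde7b and Pde8b are shown because their correlations with the medium spiny neuron marker score were the highest of the 9 genes. The cAMP response element TGACGTCA and its core TGACG, which lies within it, were searched on both strands. Capitals mark cores, written as CGTCA where the match is on the minus strand of the window.

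Pde1a, chr2:80038853-80039152, minus strand, an alternative start inside the gene: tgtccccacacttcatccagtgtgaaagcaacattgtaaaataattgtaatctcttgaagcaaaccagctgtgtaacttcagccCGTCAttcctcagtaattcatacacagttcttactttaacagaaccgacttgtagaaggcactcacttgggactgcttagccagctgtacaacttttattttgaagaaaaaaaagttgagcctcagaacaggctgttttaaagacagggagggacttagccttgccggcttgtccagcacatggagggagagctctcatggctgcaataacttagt

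Pde5a, chr3:122728908-122729207, plus strand: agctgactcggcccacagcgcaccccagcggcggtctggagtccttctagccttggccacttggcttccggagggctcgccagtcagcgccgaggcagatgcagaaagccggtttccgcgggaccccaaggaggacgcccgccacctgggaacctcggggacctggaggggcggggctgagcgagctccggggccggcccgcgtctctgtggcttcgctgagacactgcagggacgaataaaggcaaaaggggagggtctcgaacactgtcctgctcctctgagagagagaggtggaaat

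Pde7b, chr10:20548279-20548578, minus strand, an alternative start inside the gene: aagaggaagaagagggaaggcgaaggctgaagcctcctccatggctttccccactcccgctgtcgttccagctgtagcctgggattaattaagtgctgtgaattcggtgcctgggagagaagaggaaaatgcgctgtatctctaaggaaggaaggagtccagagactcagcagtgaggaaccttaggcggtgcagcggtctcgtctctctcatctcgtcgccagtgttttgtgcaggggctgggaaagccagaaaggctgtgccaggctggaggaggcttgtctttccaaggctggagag

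Pde8b, chr13:95223001-95223300, minus strand, an alternative start inside the gene: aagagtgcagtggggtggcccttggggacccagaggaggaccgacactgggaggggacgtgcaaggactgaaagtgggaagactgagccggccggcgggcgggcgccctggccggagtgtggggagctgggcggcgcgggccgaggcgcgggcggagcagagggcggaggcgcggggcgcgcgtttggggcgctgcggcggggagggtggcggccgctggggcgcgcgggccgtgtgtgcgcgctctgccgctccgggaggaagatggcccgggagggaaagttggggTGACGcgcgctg

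No window of these genes held the full element, which 1.79% of all 32851 promoter windows held. The core stood in 5 of the 27 windows, in 1 window each of Pde1a, Pde2a, Pde4a, Pde4b and Pde8b, against 20.8% of all windows. For Pde1a and Pde8b the window shown is the only one of the gene with a core, and their other windows are not shown. In the shown Pde1a window the core began 166 bases before the start. The windows shown ranged in composition from 43.3% G and C in Pde1a to 76.3% in Pde8b, with 66.3% in Pde5a and 55.7% in Pde7b. Reads were counted over whole genes, so the values below do not say which start was used.

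Gene counts summed to 32388971 in the shallowest library and to 53710713 in the deepest, and 3 counts were at most 0.0926 CPM (counts scaled to the library total). Each library correlated with the others of its group at a median of 0.974 or more, so no library stood apart by this measure. The defining markers of medium spiny neurons, such as Drd1, Drd2 and Penk, summed to between 4284 and 6808 CPM. RNA of neighboring tissue was also present. The 9 markers of cortical excitatory neurons, Slc17a7 and Tbr1 among them, were detected in every mouse. They summed to 295.5 to 827.9 CPM in Control saline mice, 606.3 to 829.6 in Control amphetamine, 162.5 to 341.2 in High-Active saline and 216.9 to 966.6 in High-Active amphetamine. Their mean log2 level was 0.64 lower in High-Active mice (permutation test with 100000 regroupings, p = 0.05696, n = 10 per line). It was 0.79 higher after amphetamine (exact permutation test within lines, p = 0.009133), by 0.52 in Control and by 1.06 in High-Active mice. In the fit, 3 of these 9 markers were lower in High-Active mice at an adjusted p under 0.1 and 8 of 9 had higher values after amphetamine, none past the threshold. In bulk tissue, fewer cells of a type and less RNA per cell cannot be told apart.

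Levels of different genes were compared as CPM per kb of exon, since longer genes collect more reads. Pde8b, a cAMP-specific enzyme of high affinity, had the highest median of the 9 genes at 23.4 CPM per kb. Pde7b, also specific for cAMP, followed at 17.97, then Pde1a at 16.34, and the cAMP-specific Pde4b and Pde4a at 14.71 and 13.19. Below a gap came Pde9a at 5.917, Pde4d at 3.097, Pde1c at 2.505 and Pde5a at 0.6525. The ranges over mice were separate between Pde4a and Pde9a and between Pde1c and Pde5a. Pde8b exceeded Pde7b in 20 of 20 mice, and Pde9a exceeded Pde4d in 20 of 20, although their ranges over mice overlapped. Both orders rest on the length used, that of all annotated exons, whichever transcripts the striatum makes. In CPM the medians ran the other way, 223.6 for Pde7b and 137.6 for Pde8b, and 37.18 for Pde4d and 20.94 for Pde9a. Pde7b exceeded Pde1a in only 8 of 20 mice, so the order of these neighbors was not settled. Pde1a exceeded Pde4b in 17, Pde4b exceeded Pde4a in 18 and Pde4d exceeded Pde1c in 15 of 20 mice. For scale, Pde1b had a median of 188.9 CPM per kb and Pde10a 93.92, above all 9. Pde2a is not part of this order and is described below. Pde5a rested on 167 to 428 counts per mouse, whereas every other member had at least 579.

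**Figure D1:**
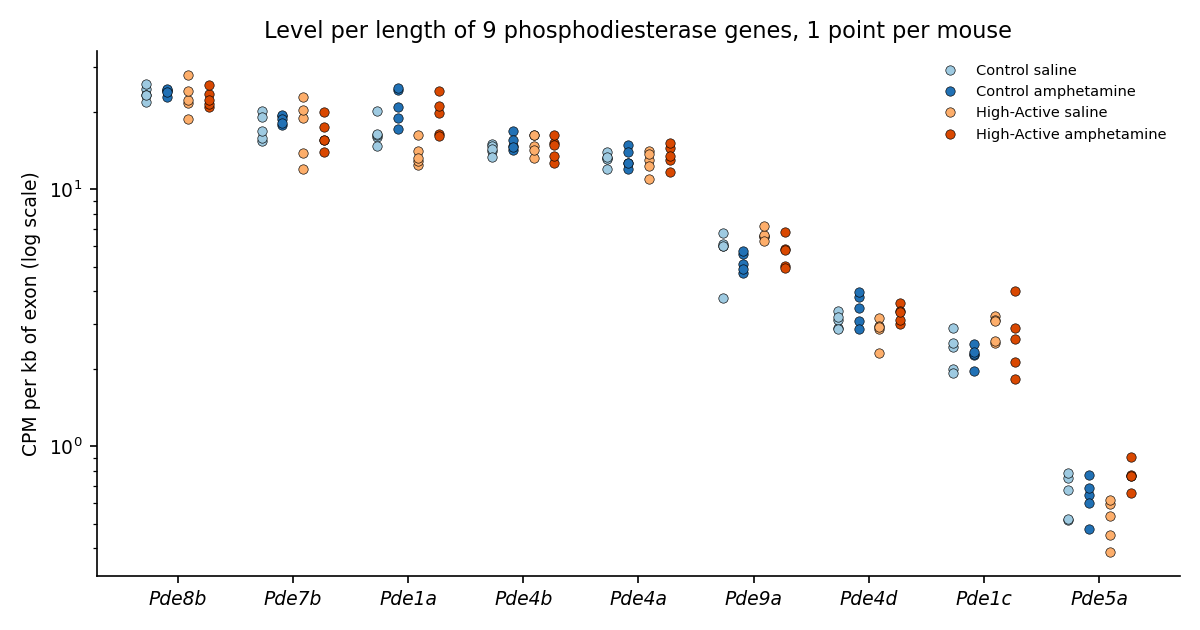
Level of the 9 measured phosphodiesterase genes in CPM per kb of exon (vertical log axis), 1 point per mouse, colored by group, with genes ordered by their median over 20 mice. Pde8b to Pde4a form an upper band with medians from 13.19 to 23.4, and Pde5a lies lowest at 0.6525.

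The annotated Pde2a gene (chromosome 7 at 101421691 to 101512827, plus strand) had no row under its current identifier. A row named Gm45837 in the annotation (ENSMUSG00000030653) covers 64.32% of the exon bases of Pde2a, and 95.55% of its own exon bases are shared with it. The counts were made on Ensembl release 75, older than the annotation used here for names, and the row may be Pde2a under an earlier identifier. The sources used here do not settle this, so the row is given apart from the 9 genes. It was abundant, with a median of 676.7 CPM. By the exon length annotated for this row that was 163.5 CPM per kb, above the 9 genes and Pde10a and below Pde1b. Its High-Active minus Control difference was -0.17 on the log2 scale (standard error (SE) 0.087, edgeR quasi-likelihood test with Benjamini-Hochberg adjustment, adjusted p = 0.2355). Its amphetamine difference was 0.04 (SE 0.087, adjusted p = 0.8921).

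No phosphodiesterase of the 9 differed between High-Active and Control mice in the edgeR quasi-likelihood test at an adjusted p under 0.1, where 14.5% of all tested genes did. Averaged over both treatments, 3 genes had higher and 6 had lower values in High-Active mice, and the median log2 difference was -0.02, against -0.001 over all genes tested. At an unadjusted p under 0.05 there were 2 of 9, Pde1a and Pde1c, against 26.1% of all tested genes. DESeq2 called 1 of the 9, Pde1c, and 19% of all genes. The edgeR likelihood-ratio test with robust dispersions, the kind of method named by the study, called 2, Pde1a and Pde1c, and 15.3% of all genes. These are calls of the refit made here. The study itself reported a much smaller share of genes for line at the same threshold. Among saline mice alone in the same fit 0 of the 9 were called, against 3.74% of all genes, and among amphetamine mice 0 of the 9, against 1.3%.

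Pde1c, a calmodulin-dependent enzyme that cleaves cAMP and cGMP alike, had the largest difference with line in size. Its levels were 48.74, 57.67, 40.14, 50.44 and 38.76 CPM in Control saline mice and 45.5, 45.88, 50.17, 39.45 and 46.62 in Control amphetamine mice. In High-Active mice they were 50.37, 64.38, 62.32, 61.38 and 51.56 CPM after saline and 52.26, 36.65, 42.65, 58.0 and 80.73 after amphetamine. After saline all 5 High-Active mice lay above the Control median, whereas after amphetamine the High-Active values spread to both sides of the Control values. The log2 difference was 0.27 (SE 0.113, 95% interval 0.04 to 0.51, edgeR adjusted p = 0.1319), a ratio of 1.209. It fell to 0.18 without replicate 5 of the High-Active amphetamine group, the mouse at 80.73 CPM (edgeR adjusted p = 0.214). With DESeq2 it was 0.27 (adjusted p = 0.09271) and in the likelihood-ratio test 0.24 (adjusted p = 0.07019).

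Pde1a, the calmodulin-dependent enzyme that favors cGMP, had lower values in High-Active mice, with a log2 difference of -0.20 (SE 0.086, 95% interval -0.38 to -0.02, edgeR adjusted p = 0.146). The difference was -0.28 among saline mice and -0.12 among amphetamine mice, both short of the threshold (edgeR adjusted p = 0.2414 and 0.6961). The likelihood-ratio test called it (-0.22, adjusted p = 0.04239). With the cortical marker score as a covariate it was -0.08 (adjusted p = 0.746), and with counts summed over siblings it was -0.09 (adjusted p = 0.7796). The part of cortical RNA in the line difference of Pde1a was not tested beyond this fit.

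For the cAMP-specific genes the intervals were narrow around 0. The 95% interval of the log2 line difference was -0.11 to 0.11 for Pde4a, -0.10 to 0.10 for Pde4b, -0.18 to 0.05 for Pde8b and -0.23 to 0.04 for Pde4d. It was wider for Pde7b, from -0.29 to 0.12. Between the cGMP-specific genes, Pde5a had a difference of -0.02 (SE 0.108) averaged over treatments, and Pde9a one of 0.17 (SE 0.084, edgeR adjusted p = 0.2148). For comparison, Pde1b had a log2 difference of -0.14 (SE 0.084, adjusted p = 0.3011) and Pde10a one of -0.22 (SE 0.106, adjusted p = 0.1897) in the same edgeR fit. Of these latter genes only Pde10a was called by the likelihood-ratio test (adjusted p = 0.0669).

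**Figure D2:**
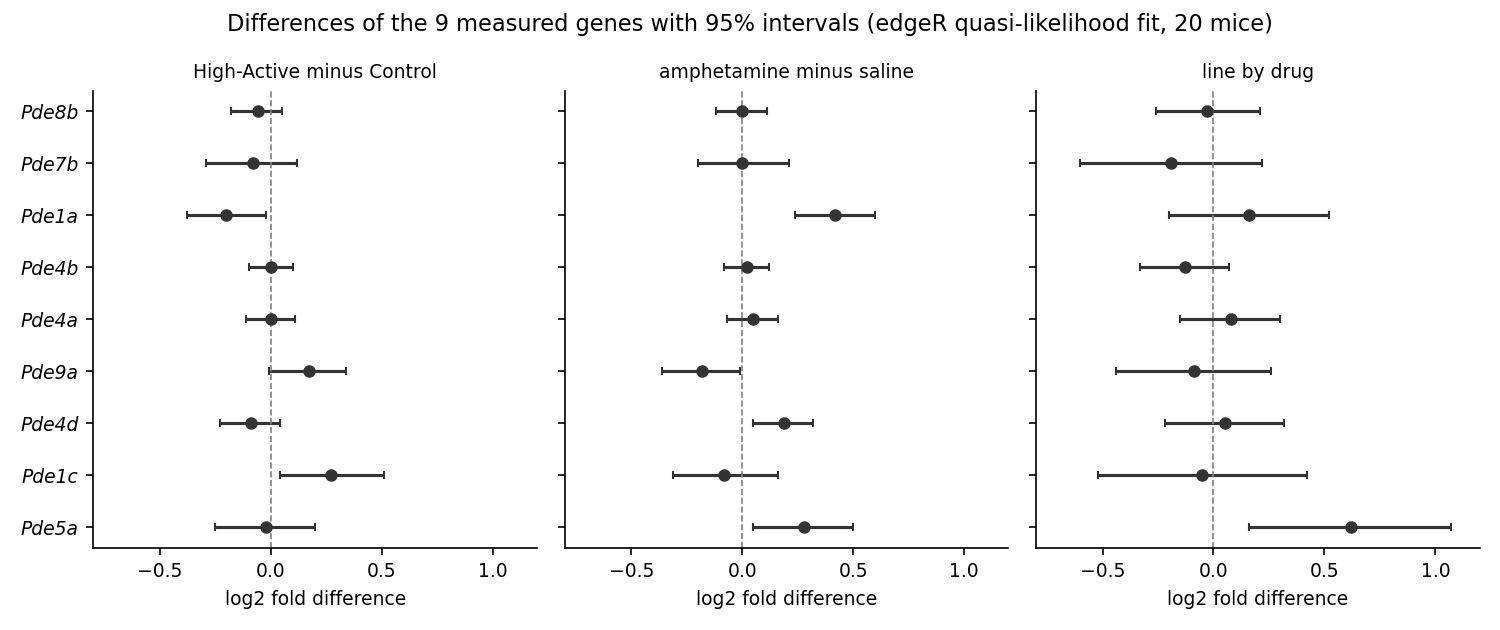
Log2 fold differences (horizontal axes) of the 9 measured phosphodiesterase genes with 95% intervals from the edgeR quasi-likelihood fit of 20 mice, for line (left), amphetamine (middle) and the line by drug interaction (right). Pde1a stands farthest from 0 for amphetamine, at 0.42, and Pde5a for the interaction, at 0.62.

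After amphetamine, Pde1a had higher values in both lines, whereas Pde4a, Pde4b, Pde7b and Pde8b stayed within a few percent of their saline means over both lines. None of the 9 passed the edgeR quasi-likelihood threshold, and neither did any other gene (0.0% of 14792 called). At an unadjusted p under 0.05 there were 4 of the 9, namely Pde1a, Pde4d and Pde5a with higher and Pde9a with lower values, against 12.5% of all genes. DESeq2 called 1, Pde1a, and 2.64% of all genes, and the likelihood-ratio test called 1, Pde1a, and 3.1% of all genes. The study itself, with its own fit, reported genes for amphetamine and for the line by drug interaction at the same threshold. The median log2 difference of the 9 was 0.02, with -0.01 over all genes tested.

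Pde1a was at 121.4, 96.08, 98.14, 88.49 and 98.25 CPM in Control saline mice and at 125.3, 146.4, 114.2, 148.7 and 102.7 in Control amphetamine mice. In High-Active mice it was at 84.38, 98.14, 74.64, 77.56 and 79.33 CPM after saline and at 144.7, 98.24, 96.72, 119.4 and 126.7 after amphetamine. All 10 amphetamine mice lay above the saline median, and 5 lay above every saline mouse, the highest of which was a Control mouse. The log2 difference was 0.42 (SE 0.086, 95% interval 0.24 to 0.60), a ratio of 1.34, and it ranked 7 by p among the 14792 genes. The edgeR quasi-likelihood p was 9.343e-05 and the adjusted p 0.1662. An exact permutation test of the treatment labels within lines gave p = 0.0005669. By line, the difference was 0.34 in Control mice (exact permutation p = 0.03968, edgeR adjusted p = 0.6935). In High-Active mice it was 0.50 (exact permutation p = 0.01587, edgeR adjusted p = 0.3155). The difference between the lines' responses was 0.16 (SE 0.171, edgeR adjusted p = 1.0).

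The call for Pde1a turned on the test used and on the p-values adjusted together. The adjusted p was 0.002958 with DESeq2 and 5.789e-05 in the likelihood-ratio test, while the log2 differences were 0.42 and 0.43. When the p-values of line, drug and interaction were adjusted together, the quasi-likelihood adjusted p was 0.02042, among 1.12% of all genes called for drug. In 6 families, 2 of Control and 4 of High-Active mice, full siblings received different treatments. Within these families Pde1a was higher after amphetamine in 4 of 6, with log2 differences from -0.09 to 0.65. With family as a fixed term in the edgeR fit, the difference was 0.33 (SE 0.1186, adjusted p = 0.9763). That fit left 5 residual degrees of freedom and called 1 of all 14792 genes for drug. Cortical markers moved with the same contrast. With their score as a covariate the Pde1a difference was 0.27 (SE 0.0942, adjusted p = 0.9384), and with the oligodendrocyte score added it was 0.32 (SE 0.0889, adjusted p = 0.8214). In the list of 9 cortical markers Slc17a7 had a log2 difference of 1.03 with amphetamine (SE 0.287). Leaving out single mice moved the Pde1a difference between 0.38 and 0.46 and its adjusted p between 0.04439 and 0.3513. It passed the threshold without replicate 1 of either saline group or without replicate 2 of the High-Active amphetamine group.

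Pde4d, a cAMP-specific enzyme held at membranes and receptors by anchoring proteins, was at 34.55, 37.27, 34.21, 40.16 and 38.19 CPM in Control saline mice and at 36.83, 45.82, 41.49, 47.6 and 34.46 in Control amphetamine mice. In High-Active mice it was at 34.32, 37.77, 35.28, 35.04 and 27.64 CPM after saline and at 43.25, 35.75, 40.49, 37.09 and 40.07 after amphetamine. Of the amphetamine mice, 9 of 10 lay above the saline median and 5 lay above every saline mouse. The log2 difference was 0.19 (SE 0.064, edgeR adjusted p = 0.253, exact permutation p = 0.01153), a ratio of 1.137. With the cortical score as a covariate it was 0.21, so it was as large in that fit. Among full siblings it was higher after amphetamine in 6 of 6 families, by 0.08 to 0.37. With family as a fixed term, where 1 of 14792 genes was called, it was 0.23 (SE 0.0549, edgeR adjusted p = 0.9763).

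Pde9a, the cGMP-specific enzyme of highest affinity, was at 23.99, 21.19, 21.7, 21.27 and 13.38 CPM in Control saline mice and at 19.86, 20.26, 16.64, 18.11 and 17.37 in Control amphetamine mice. In High-Active mice it was at 23.24, 23.11, 23.49, 25.43 and 22.22 CPM after saline and at 20.68, 24.2, 17.72, 17.48 and 20.47 after amphetamine. Only 1 of 10 amphetamine mice lay above the saline median, and 1 Control saline mouse lay far below the others. The log2 difference was -0.18 (SE 0.084, edgeR adjusted p = 0.3851, exact permutation p = 0.06664). Without that mouse it was -0.24 (SE 0.0588, adjusted p = 0.1314). With the cortical score as a covariate it was -0.08 (SE 0.0999, adjusted p = 0.9588).

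**Figure D3:**
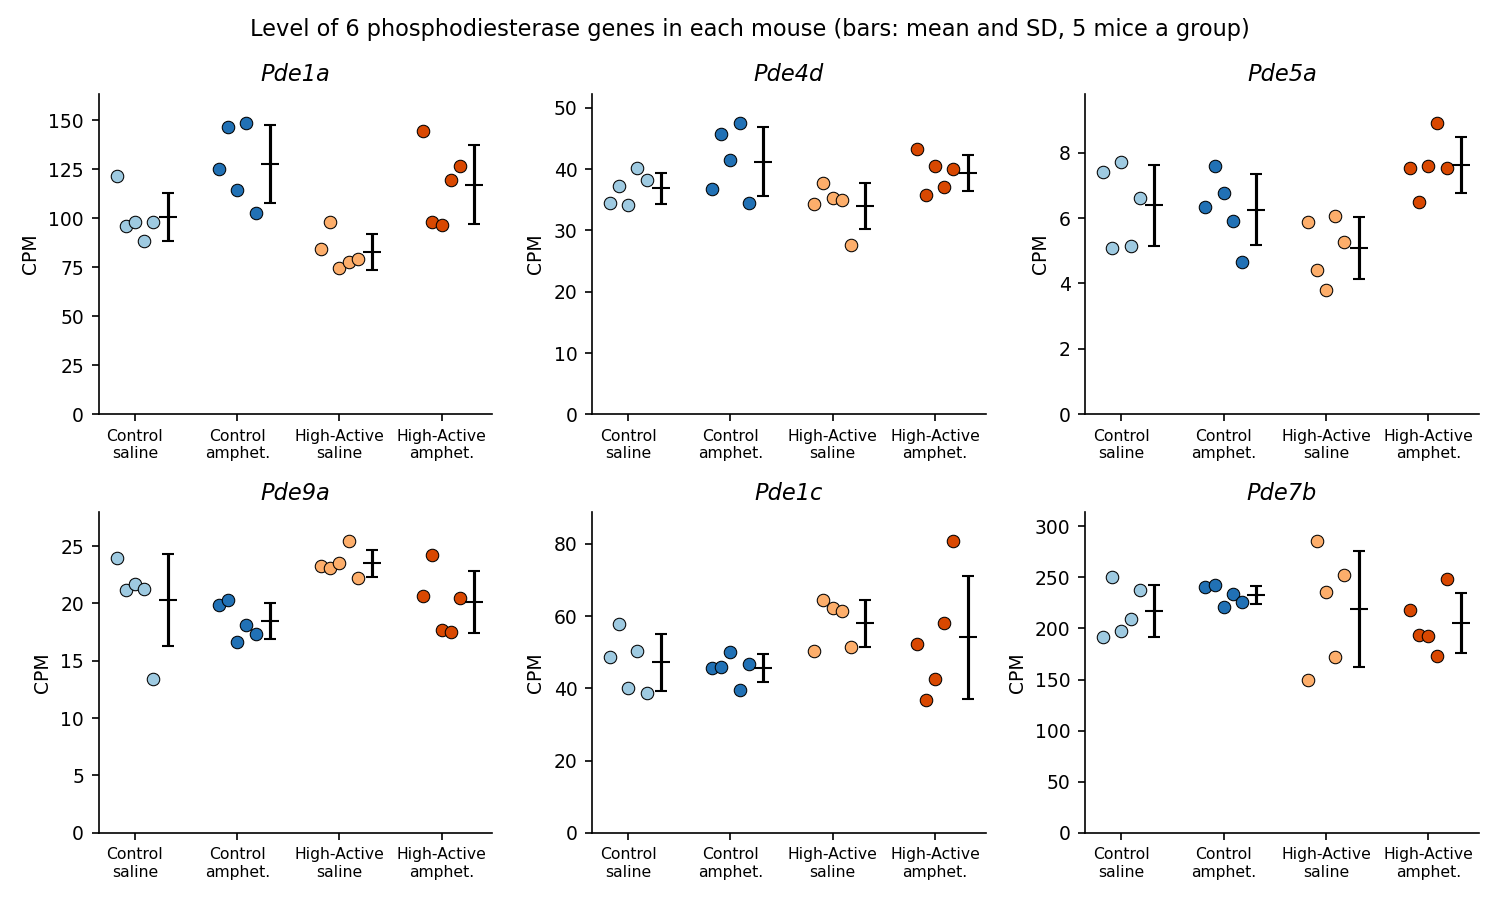
CPM (vertical axes, from 0) of Pde1a, Pde4d, Pde5a, Pde9a, Pde1c and Pde7b in each of the 20 mice by group, with the mean and SD of each group of 5 beside the points. In High-Active mice the Pde5a values after amphetamine (6.489 to 8.919) all lie above those after saline (3.816 to 6.053).

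Pde5a, the cGMP-specific enzyme that sildenafil inhibits, had higher values after amphetamine in High-Active mice and not in Control mice. It was at 7.425, 5.082, 7.718, 5.139 and 6.61 CPM in Control saline mice and at 6.341, 7.6, 6.781, 5.897 and 4.669 in Control amphetamine mice, and these groups overlapped throughout. In High-Active mice it was at 5.873, 4.423, 3.816, 6.053 and 5.26 CPM after saline and at 7.544, 6.489, 7.598, 8.919 and 7.543 after amphetamine. These last groups did not overlap, which was so for 0.892% of all tested genes in that comparison. The log2 difference was 0.58 in High-Active mice (SE 0.154, 95% interval 0.26 to 0.91, edgeR adjusted p = 0.3265), a ratio of 1.5. An exact permutation test gave p = 0.007937, the smallest that 5 against 5 mice can give. Groups of 5 that do not overlap always give this p, so it restates the separation and adds no support. The share of all genes without overlap, 0.892%, was close to the rate that regrouping alone gives. In Control mice the difference was -0.03 (SE 0.153, 95% interval -0.35 to 0.29).

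The difference between these responses was 0.62 (SE 0.217, 95% interval 0.16 to 1.07), with an edgeR p of 0.01029 and an adjusted p of 1.0. An exact permutation test with treatment labels exchanged within lines gave p = 0.02897. Such an exchange presumes no drug difference in either line, so it is not a test of equal responses alone. None of the 9 genes passed the quasi-likelihood threshold for the line by drug interaction, nor did any of the 14792 (0.0%), and DESeq2 (0.0% of all genes) and the likelihood-ratio test (0.0406%) called none of the 9. At an unadjusted p under 0.05 Pde5a was the only 1 of 9, against 2.97% of all genes. Within High-Active mice, DESeq2 called Pde5a and Pde1a for amphetamine (adjusted p = 0.05315 and 0.03721) among 0.886% of all genes. The likelihood-ratio test called the same genes (adjusted p = 0.0616 and 0.003585) among 1.89%.

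The score of cortical markers moved with this contrast too, by 0.52 in Control and 1.06 in High-Active mice. With it as a covariate, the Pde5a interaction was 0.47 (SE 0.1905, adjusted p = 0.999), and its amphetamine difference within High-Active mice was 0.31 (SE 0.16, adjusted p = 0.9994). With family as a fixed term, the interaction was 0.38 (SE 0.328, edgeR adjusted p = 1.0) and the difference within High-Active mice was 0.60 (SE 0.182, edgeR adjusted p = 0.9986). That fit called 1 of 14792 genes for the interaction and 0 for drug in High-Active mice. Of the 2 Control families with both treatments, 1 had a higher value after amphetamine (0.58) and the other a lower one (-0.13). Markers of endothelial and mural cells, blood vessel cells in which Pde5a is known to act, differed with amphetamine by -0.25 in Control mice and by 0.09 in High-Active mice on the same log2 scale. Their sums ran from 211.2 to 279.1 CPM in Control saline, 197.9 to 244.2 in Control amphetamine, 244.2 to 279.3 in High-Active saline and 249.4 to 317.9 in High-Active amphetamine mice. The interaction was above 0 for 11 of these 11 markers, with a median of 0.33 and none past the threshold, and their part in the Pde5a values was not tested. Between saline mice the lines differed in Pde5a by -0.33 (SE 0.154, edgeR adjusted p = 0.2722) and between amphetamine mice by 0.29 (SE 0.153, edgeR adjusted p = 0.4472), which cancelled in the average.

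**Figure D4:**
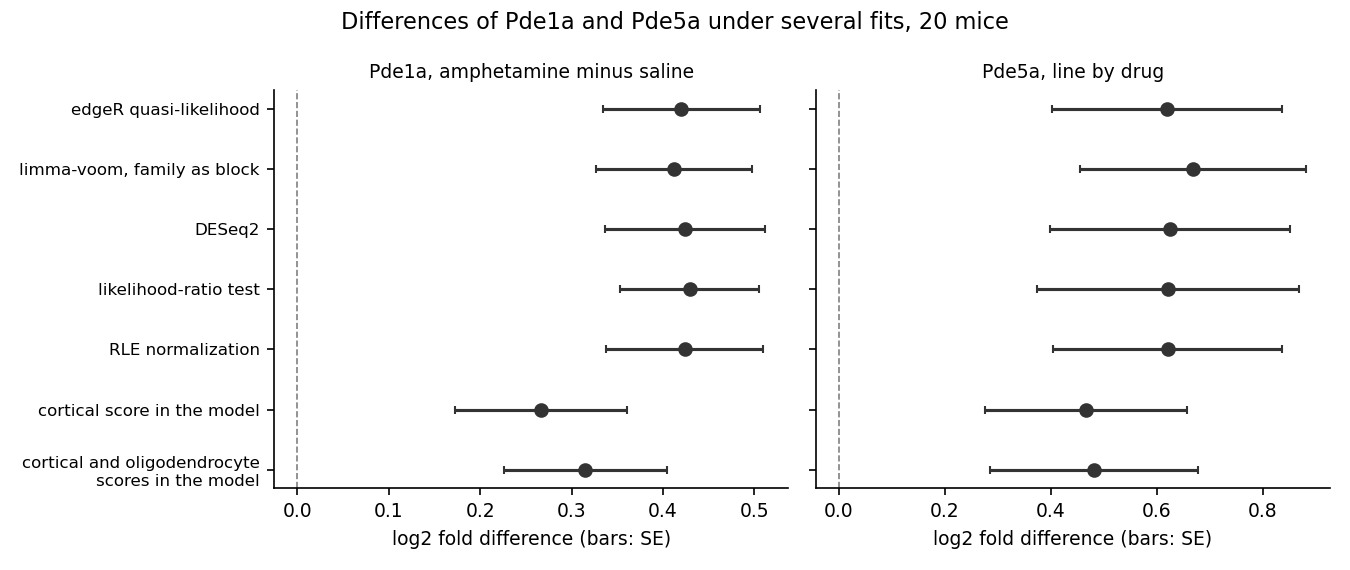
Log2 fold difference (horizontal axes, bars are SE) of Pde1a for amphetamine (left) and of Pde5a for the line by drug interaction (right) under the quasi-likelihood fit and 6 alternatives in 20 mice. The Pde1a difference is 0.42 in the first fit and 0.27 with the cortical score in the model, and the Pde5a difference is 0.62 and 0.47.

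None of the remaining genes was called in any comparison of the 4 groups by the quasi-likelihood test. Pde8b was at 139.6 ± 8.386 CPM in Control saline (SD, n = 5 here and below), 140.6 ± 3.621 in Control amphetamine, 134.7 ± 19.95 in High-Active saline and 133.2 ± 10.5 in High-Active amphetamine mice. Pde4a, the shortest of the PDE4 genes here, was at 100.5 ± 5.615, 101.1 ± 8.804, 98.03 ± 9.379 and 103.9 ± 10.24 CPM in the same order of groups. Pde4b, a cAMP-specific enzyme that rolipram inhibits, was at 151.2 ± 6.544, 160.3 ± 10.86, 158.0 ± 13.89 and 152.9 ± 14.67 CPM. The 95% interval of the log2 amphetamine difference was -0.12 to 0.11 for Pde8b, -0.07 to 0.16 for Pde4a and -0.08 to 0.12 for Pde4b. Differences of 20% or more lay outside these 3 intervals. For the interaction the intervals were wider, -0.26 to 0.21 for Pde8b, -0.15 to 0.30 for Pde4a and -0.33 to 0.07 for Pde4b. Pde7b was at 217.2 ± 25.58, 232.8 ± 9.128, 219.1 ± 56.81 and 205.3 ± 29.03 CPM, and its intervals were wider still, from -0.20 to 0.21 with the drug and, in the interaction, from -0.60 to 0.22.

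Pde7b and Pde8b varied from mouse to mouse with the medium spiny neuron markers. Each value was taken as log2 CPM minus its group mean, so that group differences did not enter, and 27 relations of the 9 genes with 3 marker scores were computed. Pde7b followed the medium spiny neuron score closely (Pearson's r = 0.93, adjusted permutation p = 0.00378, Spearman's rho = 0.91, adjusted permutation p = 0.0054, n = 20 mice). Without the 2 mice farthest from the median score, r was 0.87. Pde8b followed it too (r = 0.77, adjusted permutation p = 0.03523, rho = 0.66, adjusted permutation p = 0.1057), with r = 0.59 without the 2 farthest mice. For Pde4b with this score it was r = 0.61 (rho = 0.55, adjusted permutation p = 0.1062 and 0.1223), and 0.46 without the 2 farthest mice. The lowest Pde7b value, 149.6 CPM, and the highest, 285.5 CPM, both came from High-Active saline mice. Pde5a had its strongest relation with the cortical score (r = 0.60, adjusted permutation p = 0.05229, rho = 0.57, adjusted permutation p = 0.1057, r = 0.55 without the 2 farthest mice). For Pde1a it was r = 0.54 with the cortical score (rho = 0.60, adjusted permutation p = 0.1062 and 0.1042) and r = -0.56 with the oligodendrocyte score (rho = -0.56, adjusted permutation p = 0.1062 and 0.1057). Without the 2 farthest mice these were 0.50 and -0.57.

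**Figure D5:**
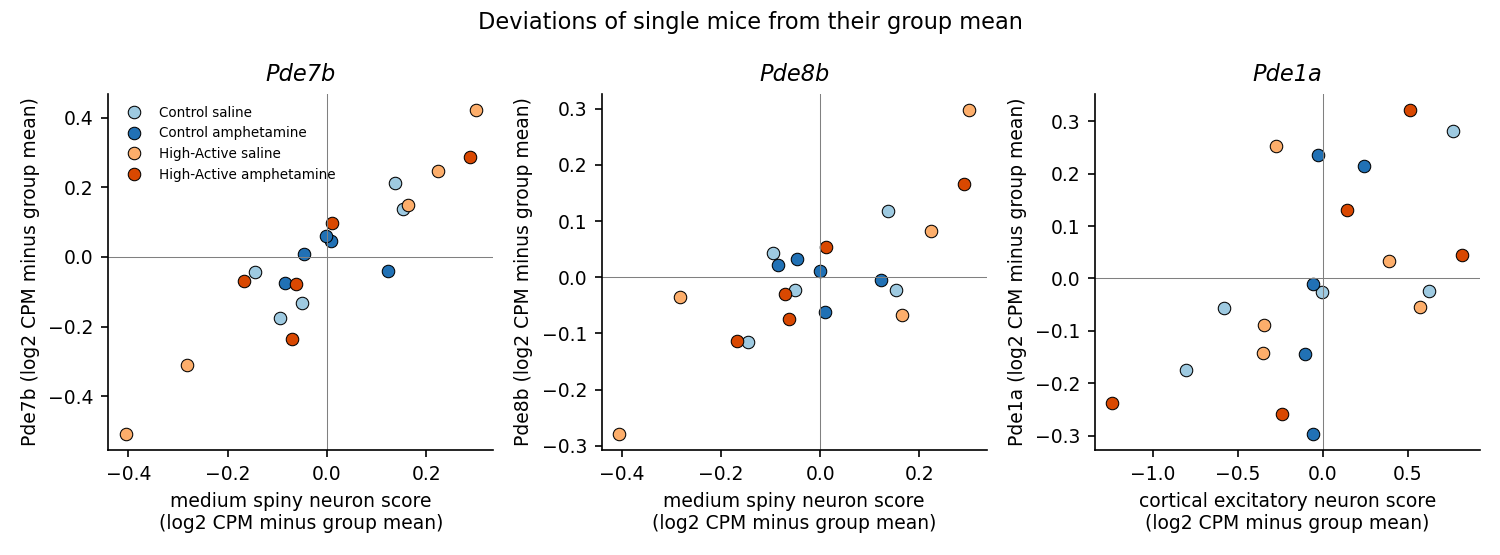
Log2 CPM minus the group mean (vertical axes) of Pde7b, Pde8b and Pde1a in 20 mice against marker scores treated the same way, medium spiny neuron for Pde7b and Pde8b and cortical excitatory neuron for Pde1a (horizontal axes). The Pde7b points lie close to a line (r = 0.93), the Pde8b points less so (0.77) and the Pde1a points are scattered (0.54).

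Among all other tested genes, the gene most alike to Pde7b in these deviations was Pde10a (r = 0.96 over 20 mice). The gene most alike to Pde8b was Prkar2b (r = 0.94), a regulatory subunit of the cAMP-dependent protein kinase. For Pde4b it was Cacna1e (r = 0.90), a calcium channel subunit. It was Klhl11 for Pde4d, Sept9 for Pde5a, Adam19 for Pde4a, Arid4a for Pde1c and Col4a2 for Pde9a, with r from 0.80 to 0.89. Each was the highest of 14791 values and is given as a description. Between members, 36 pairs were compared. The highest was Pde7b with Pde8b (r = 0.78, adjusted permutation p = 0.112, rho = 0.62, adjusted permutation p = 0.247, r = 0.54 without the 2 farthest mice), and no pair passed an adjusted p of 0.1.

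Around these genes in the pathway, some of the enzymes that make cyclic nucleotides differed between the lines. Of 16 tested cyclase genes, 2 had higher and 3 had lower levels in High-Active mice, against 14.5% of all tested genes called in either direction. Gucy1a2, a subunit of the nitric oxide-sensitive guanylyl cyclase, was lower by a log2 difference of -0.59 (SE 0.149, edgeR adjusted p = 0.02336). The adenylyl cyclases Adcy9 (-0.29, SE 0.077) and Adcy1 (-0.49, SE 0.151), the latter stimulated by calmodulin, were lower too (edgeR adjusted p = 0.03015 and 0.0551). Npr2, a guanylyl cyclase that is the receptor of C-type natriuretic peptide, was higher by 0.20 (SE 0.061, edgeR adjusted p = 0.05693). With the cortical score as a covariate, where 3.08% of all genes were called, none of these was called. The log2 differences were then -0.53 for Gucy1a2, -0.21 for Adcy9, 0.15 for Npr2 and -0.11 for Adcy1. With counts summed over full siblings, where 4.12% of all genes were called, Gucy1a2 was called (-0.53, edgeR adjusted p = 0.09948). Adcy9 (-0.22), Adcy1 (-0.34) and Npr2 (0.16) were not (edgeR adjusted p = 0.2685, 0.3292 and 0.227). Adcy1 lost its call without Control saline replicate 5 or High-Active amphetamine replicate 2. Npr2 lost its call without either of these, Control saline replicate 1 or High-Active saline replicate 4.

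Of 16 tested partners and anchors, none was higher and 2 were lower in High-Active mice, against 14.5% of all genes called in either direction. The 2 were calmodulin genes, Calm2 at -0.15 (SE 0.043, edgeR adjusted p = 0.04246) and Calm3 at -0.12 (SE 0.043, edgeR adjusted p = 0.09461). Neither was called with the cortical score as a covariate (-0.07 and -0.03, edgeR adjusted p = 0.412 and 0.7066) or with counts summed over siblings (-0.13 and -0.10, edgeR adjusted p = 0.1865 and 0.2067). Calm3 lost its call in 14 of the 20 fits that left out 1 mouse. None of 16 tested effectors, such as protein kinase A and G subunits, was called for line. Nor was any of 9 tested other phosphodiesterase genes, against the same 14.5% of all genes. The median log2 line difference was 0.02 for the cyclases, 0.06 for the effectors, -0.04 for the partners and 0.03 for the other phosphodiesterases. For amphetamine and for the interaction, no gene of these lists passed the quasi-likelihood threshold. DESeq2 called Adcy1, Adcy9 and Rapgef4 for amphetamine, which are named here after their values were seen, and the likelihood-ratio test called these genes too. These tests called 2.64% and 3.1% of all genes for amphetamine.

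The position of the genes was compared with the line differences of their neighbors, since linked genes can differ together between lines. Within 1 Mb of Pde4b, Pde4d and Pde7b none of 9, 6 and 10 tested neighbors was called for line. Around Pde8b it was 4 of 12, around Pde9a 5 of 21, around Pde4a 8 of 58, around Pde1a 2 of 10, around Pde5a 2 of 14 and around Pde1c 1 of 8, against 14.5% of all genes. Pde9a lies 759.3 kb from Glo1 on chromosome 17. Antisense genes shared exon bases with Pde8b (7.6% of its exon bases), Pde9a (3.9% and 4.44%) and Pde5a (0.56%). The strand setting of the counting is not given in the sources used here, so reads of these shared stretches cannot be assigned with certainty.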

How the data were processed

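Striatal RNA of 20 mice was sequenced as paired reads from stranded libraries. Per the labels, the authors aligned reads to GRCm38 (TopHat2 2.0.10, Bowtie2 2.1.0) and deposited raw read counts per Ensembl gene (HTSeq 0.6.1), 1 file per mouse. Rows naming no gene held 15.97% to 17.49% of the reads and were left out. Gene symbols and positions came from GENCODE M21.

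Genes over 1 CPM in at least 3 mice were kept (14792). Counts were normalized by TMM and tested with edgeR 4.0.16 (quasi-likelihood, a mean for each of 4 groups, Benjamini-Hochberg over all tested genes, threshold 0.1). Log2 CPM used a prior count of 2. Alternatives were DESeq2 1.42.0, the likelihood-ratio test with robust dispersions, limma 3.58.1 with family as a block, edgeR with family as a fixed term, other filters and normalization, marker scores as covariates, other thresholds and each mouse left out. The lists of genes tested and the members were chosen with earlier results of these data known. Named genes were the members, Pde1b, Pde10a and, per list, at most 4 genes called for line with the smallest p, and the gene most alike to each member, of which some results are not reported here. The fit was tested on simulated data with 200 changed genes. Mice are the replicates. Counts per mouse were lowest for Pde5a, at 167 to 428, and counting error was not separated from the spread between mice.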

Additional observations from a re-analysis of the deposited data

Results flagged for a closer look

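Of 36 sets of 5 mice (9 genes in 4 groups), 1 held a value that stood apart by Dixon's test for a single extreme value (critical ratio 0.71). It was Pde9a in Control saline replicate 5, at 13.38 CPM, against 21.19 to 23.99 CPM in the other mice of that group. Chance alone flags about 1 set in 20 by this test. The library of this mouse correlated with the others of its group at a median of 0.9797.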

How the results depend on the processing

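In the quasi-likelihood test, 0 members were called for line, for drug and for their interaction, against 14.5%, 0.0% and 0.0% of all genes. DESeq2 called 1 member for line, 1 for drug and 2 for drug in High-Active mice. Of all genes it called 19%, 2.64% and 0.886%. The likelihood-ratio test called 2, 1 and 2 members for the same comparisons, and 15.3%, 3.1% and 1.89% of all genes. Adjusting the p-values of line, drug and interaction together called 1 member for drug, and 1.12% of all genes. The other alternatives outside leave-one-out called 0 members in every comparison. With single mice left out, the count ranged from 0 to 1 for line, for drug and for drug in High-Active mice, and was 0 for the others. Over all genes, these fits called 1381 to 2535 for line, 0 to 339 for drug and 0 to 68 for drug in High-Active mice. The cause of these shifts was not tested.

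The 4 pathway lists held 9, 16, 16 and 16 tested genes, and 14.5% of all tested genes were called for line. Of these lists together, 7 genes were called for line. The number was 0 with the cortical score as a covariate, 0 with both scores, 0 in saline mice alone and 0 in amphetamine mice alone, while calls over all genes fell from 2149 to 455, 476, 501 and 117. It was 2 with p-values adjusted together, where 855 of all genes were called, and 1 with counts summed by family, where 600 were. It was 3 at an adjusted p under 0.05. With single mice left out it ranged from 3, without High-Active amphetamine replicate 2 or Control saline replicate 5, to 9. For drug the lists had 0 genes called in the quasi-likelihood test, 3 with DESeq2, 4 in the likelihood-ratio test and 2 with p-values adjusted together. The last 3 settings called 2.64%, 3.1% and 1.12% of all genes for drug. With single mice left out the lists had 0 to 3.

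Among 315 member values under the alternatives outside leave-one-out, 284 kept direction and call, 6 gained a call and 25 changed sign, all of them uncalled. For line, Pde5a was 0.1431 with the cortical score, 0.1552 with both scores, 0.0706 with counts summed by family and 0.2885 in amphetamine mice alone. Pde4b was 0.0132, 0.0114 and 0.0076 under the first 3 of these and 0.0603 in saline mice alone. Pde4a was -0.0004 with limma and the family block and -0.0396 in saline mice alone, where Pde7b was 0.0113. For drug, Pde4a was -0.0240 with the cortical score, Pde4b -0.0015 with it and -0.0045 with both scores, and Pde7b -0.0292 in the likelihood-ratio test. Pde8b was 0.0032 in that test, 0.0016 with limma and 0.0039 with both scores.

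With single mice left out, 51 of 540 member values changed sign, none of them called. For line, Pde4a ranged from -0.0192 to 0.0264, Pde4b from -0.0243 to 0.0192 and Pde5a from -0.0676 to 0.0201. For drug, Pde4b ranged from -0.0033 to 0.0401, Pde7b from -0.0476 to 0.0599 and Pde8b from -0.0308 to 0.0378. For the interaction, Pde1c ranged from -0.2402 to 0.0600, Pde4d from -0.0134 to 0.1064, Pde8b from -0.0877 to 0.0549 and Pde9a from -0.1618 to 0.0318.

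The labels give no replicate numbers that groups share, but they name parents. A limma fit with family as a block (correlation within families 0.0264) changed no call of a member. A pairing of full siblings, chosen after seeing the data, was fitted with family as a fixed term in edgeR (5 residual degrees of freedom). It called 0 members for drug, in either line or for the interaction. Over all 14792 genes this fit called 1 for drug, 1 for the interaction, 1 for drug in Control mice and 0 for drug in High-Active mice. In it, Pde4b was -0.0571 and Pde7b -0.0230 for drug, and for the interaction Pde1c was 0.0204, Pde4a -0.0552, Pde4d -0.0973, Pde8b 0.0216 and Pde9a 0.0466, all of the other sign than without the family term. Pde5a had the lowest counts of the 9 genes, at 167 to 428 per mouse, and whether the Gm45837 row holds Pde2a was not settled.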
